A study of Mus musculus with 30 samples.

Results

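MicroRNA (miRNA) levels in the hearts of vehicle-treated mice were compared between day 3 and day 1 after an instillation into the trachea. All 10 vehicle hearts of these days, of 30 hearts in the series, were taken by their source labels: 6 of day 3 and 4 of day 1. Every mouse was a female C57BL/6 acquired at 5 to 6 weeks of age, and no genetic change was named. The vehicle controls carry a dose of 0 µg. Treated mice of the series received 162 µg of Printex 90, a carbon black nanoparticle, as 40 µl of suspension followed by 150 µl of air. That suspension held 0.9% NaCl and 10% by volume of cell-free lung lavage fluid from the same strain. The labels repeat this protocol for the vehicle hearts and do not describe the control fluid separately. Each array carried RNA of a single mouse, taken from a section of heart with both ventricles, so cell types are mixed. In such tissue fewer cells of a type and less RNA per cell cannot be told apart. No untreated mice were included in the comparison, so time after instillation and recovery from the procedure cannot be told apart.

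MiRNAs are RNAs of about the same short length that guide the Argonaute protein to messenger RNAs, mainly by pairing of the seed, bases 2 to 8 counted from the 5′ end. Most lower the stability and translation of their targets. One arm of the hairpin precursor (the guide) usually accumulates, and the other arm, marked with a star in the array names, is usually scarcer. In heart, miR-1 and miR-133 are abundant in muscle, miR-208a, miR-208b and miR-499 lie in myosin genes, miR-126 marks endothelium, the miR-29 family targets collagens and other matrix genes, and miR-451 and miR-144 are abundant in red blood cells.

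No miRNA passed the test between the days. Of 306 mouse miRNAs tested, 0 (0%) had an adjusted p under 0.05 by limma, and the smallest adjusted p was 0.439. At an unadjusted p under 0.05 there were 18 (5.88%), of which 16 were lower and 2 higher on day 3. Weighting the arrays by their estimated quality ended that absence of calls, as described with the array brightness. The sequences of the miRNAs that the comparison turns on are shown first. Mature sequences came from RefSeq (build GRCm38.p6). Of the 306 tested miRNAs 173 were matched to an entry there. Of these, 62 were matched under the same name and 111 under the arm name paired with the older array name. The count is of matches made, so an unmatched miRNA, such as miR-1a or miR-133a, may still have an entry. In each sequence the capitals mark the seed.

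The miRNAs with the smallest p among those higher by value on day 3 include 3 members of the miR-29 family with one seed, and miR-25 and miR-92a with another. They are shown with miR-31, miR-16 and the red blood cell miRNAs miR-451 and miR-144.
miR-29a: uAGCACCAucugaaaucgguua
miR-29b: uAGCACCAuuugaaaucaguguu
miR-29c: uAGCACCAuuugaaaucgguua
miR-25: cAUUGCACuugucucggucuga
miR-92a: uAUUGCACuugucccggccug
miR-16: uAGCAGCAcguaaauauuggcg
miR-31: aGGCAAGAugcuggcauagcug
miR-451: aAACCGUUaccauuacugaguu
miR-144: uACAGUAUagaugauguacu
MiR-451 (chr11:78073186-78073207) and miR-144 (chr11:78073047-78073066) are neighbours on chromosome 11 and outside any other annotated gene span. MiR-29a lies at chr6:31062673-31062694, near 1 of the miR-29b copies (chr6:31063025-31063047). The other miR-29b copy (chr1:195037091-195037113) and miR-29c (chr1:195037600-195037621) lie within the span of the long noncoding RNA A330023F24Rik. MiR-25 (chr5:138165332-138165353) lies within the span of Mcm7, and miR-31 (chr4:88910614-88910635) within that of the long noncoding RNA Gm49890. The gene table gives spans only, so exon and intron were not assigned.

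Among the miRNAs lower by value with the smallest p, these are shown with miR-10a, which shares the seed of miR-10b.
miR-3473d: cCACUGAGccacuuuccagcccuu
miR-10b: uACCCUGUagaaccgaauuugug
miR-10a: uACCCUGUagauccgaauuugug
miR-7b*: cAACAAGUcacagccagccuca
miR-744*: cUGUUGCCacuaaccucaaccu
MiR-3473d (chr8:111016498-111016521) lies within the span of Ddx19b, miR-10b (chr2:74726074-74726096) within Hoxd3 and Hoxd4, miR-10a (chr11:96317186-96317208) within Hoxb3, and miR-744* (chr11:65734742-65734763) within Map2k4. MiR-7b* lies at chr17:56243055-56243076, outside other annotated gene spans.

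The list with the lowest median difference carried names of the miR-297, miR-466, miR-467 and miR-669 families, many of which are known from a cluster in an intron of Sfmbt2. Sequences were kept for 6 of the 42 tested, because most of these names were not matched to a RefSeq entry. Of these 6, 0 lay on chromosome 2, where Sfmbt2 is. Loci on chromosome 2 were among those not matched, so this count cannot show where the other members lie. The list was made by name and is called here the miR-466, miR-467 and miR-669 names. These 4 show the runs of CA or UG that the matched members hold.
miR-466i-3p: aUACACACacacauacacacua
miR-466j: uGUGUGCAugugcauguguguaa
miR-467f: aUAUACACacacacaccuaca
miR-467g: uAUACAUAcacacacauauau
They lie at chr13:17747552-17747573 within the span of Cdk13, at chr10:60960802-60960824 outside other genes, at chr11:69635419-69635439 within Fxr2 and at chr5:34732872-34732892 within Grk4.

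The arrays hold probes for 1079 mouse miRNAs. A miRNA was counted as detected on an array when at least 0.5 of the spots of one of its probes were well above background. On the 10 arrays 359 mouse miRNAs were detected at least once, 220 on all 10 and 720 on none. Detection was confined to day 1 for 6 miRNAs and to day 3 for 16, each on 1 or 2 arrays. No miRNA was detected on all arrays of one day and on 0 of the other.

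Values below are log2 scaled signals, where 1 unit is a 2-fold step. Each array was scaled on the 75th percentile of probes detected on all arrays, and values under the lowest detected signal, 4.04 on this scale, were set to it. Differences are day 3 minus day 1 with the standard error from limma, n = 6 against 4.

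The arrays differed in brightness. The share of spots well above background was 25.7% ± 1.34 (SD, n = 4) on day 1 and 23.5% ± 3.58 (SD, n = 6) on day 3. The difference of -2.26 percentage points had an exact permutation p of 0.276 (two-sided, 210 splits). Day 3 replicates 4 and 6 were the dimmest of the 10 with 18.4% and 20.2%, and the other day 3 arrays lay at 27.5%, 26.8%, 24.0% and 23.8%. The day 1 arrays lay between 24.2% and 27.4%, so the groups overlapped. The number of mouse miRNAs detected was 314.5 ± 14.4 (SD, n = 4) on day 1 and 287.2 ± 46.1 (SD, n = 6) on day 3, with an exact permutation p of 0.310. Each of the 4 slides held both days, and the day 3 minus day 1 difference in brightness was -7.60, -3.24, 2.95 and -3.38 percentage points on slides 1 to 4. A slide held 1 day 1 array and 1 or 2 day 3 arrays, so a difference within a slide is not a replicated test. Day 3 replicate 4 was the only day 3 array on slide 1, and replicate 6 was on slide 2. Before scaling, the 75th percentile varied 2.34-fold between the 10 arrays. No spot was saturated.

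**Figure D1:**
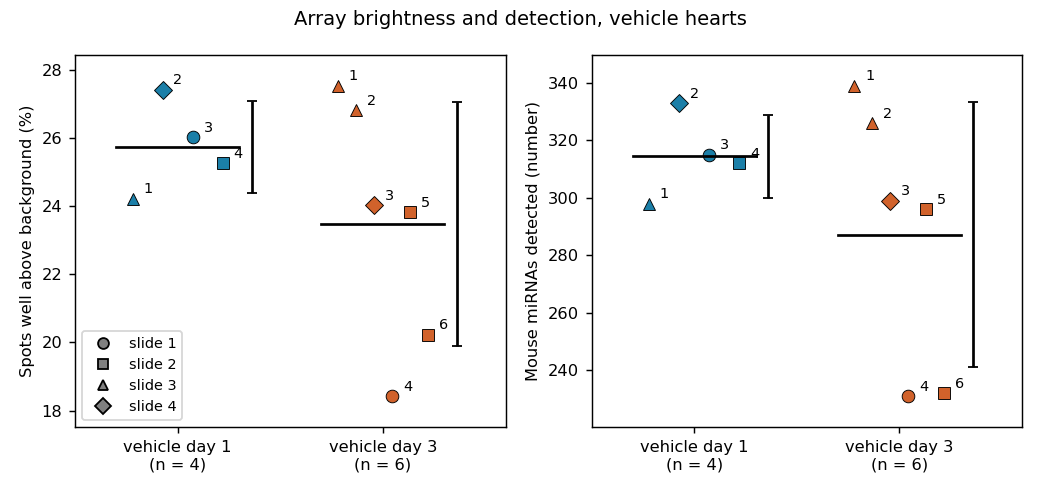
Share of spots well above background (left, %) and number of mouse miRNAs detected (right) on each vehicle array, with the replicate number beside each point and the slide as marker shape. Lines are group means and bars are 1 SD; day 3 replicates 4 and 6, at 18.4% and 20.2%, lie under all day 1 arrays.

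Which arrays counted most changed the number of calls. Limma's array weights, which give arrays with larger residuals less weight, called 103 of 306 miRNAs (33.7%), 98 lower and 5 higher on day 3. The estimation stopped before its convergence tolerance was reached. It gave day 1 replicate 3 a share of 49.7% of its group's weight and day 3 replicate 3 a share of 51.4%, while day 3 replicates 1, 4, 5 and 6 held between 4.84% and 8.38% each. The 5 higher were miR-31, miR-29b, miR-320, miR-2137 and miR-2861, and of the 98 lower 29 were miR-466, miR-467 and miR-669 names. Of the 103, 60 were in the dimmest 102 of the tested miRNAs by mean level and 7 in the brightest 102. Weights estimated gene by gene called 85 (27.8%), and weights with slide as a block called 137 (44.8%). With weights and array brightness as a covariate, 1 (0.327%) was called, miR-10b, with a difference of -1.12 ± 0.23 and an adjusted p of 0.0200 by limma. Without weights, brightness as a covariate left 3 miRNAs at an unadjusted p under 0.05 and 0 past the threshold.

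By value, 186 of the 306 miRNAs (60.8%) were lower and 120 higher on day 3, with a median difference of -0.04 and quartiles of -0.44 and 0.04. This split moved with the scaling. The share lower was 33.7% with the percentile over all probes, 45.8% after quantile normalization, 96.7% with no scaling, 43.1% with normexp background correction, 81.7% with the software's total gene signal and 38.9% in the deposited value table. The median difference of all miRNAs was 0.27 with the percentile over all probes, -0.26 with no scaling and 0.07 in the deposited table. List medians are therefore given beside that of all miRNAs. For 217 miRNAs (70.9%) the 95% interval of the difference lay within 2-fold, and for 172 (56.2%) within 1.5-fold.

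The differences depended on the level. Of the 102 tested miRNAs of lowest mean level 73 were lower on day 3, with a median of -0.23. Of the middle 102, 69 were lower, with a median of -0.09. Of the brightest 102, 58 were higher and 44 lower, with a median of 0.01. The median SD between day 3 arrays was 0.35 for the dimmest 102 and 0.16 for the brightest 102. With brightness as a covariate the median of the dimmest 102 was -0.10.

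**Figure D2:**
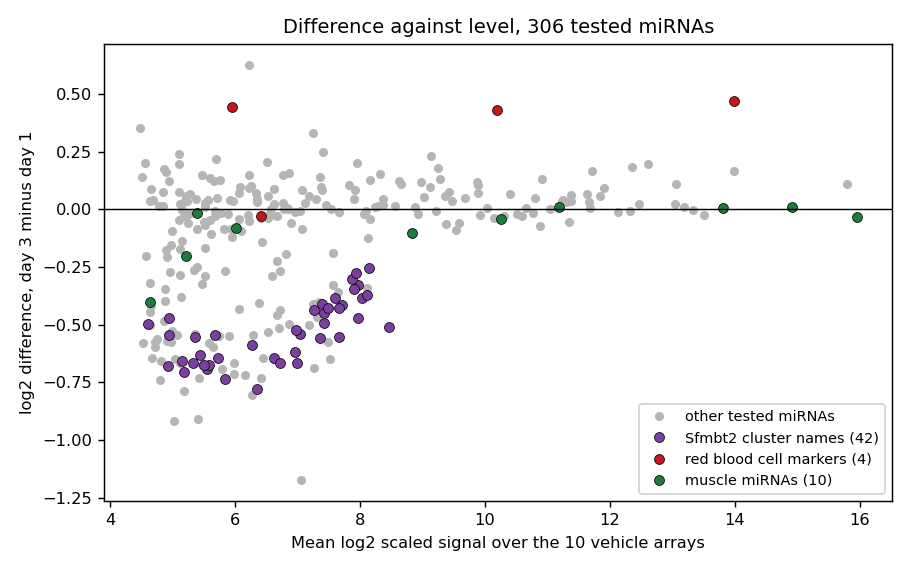
Difference of each of 306 tested miRNAs (log2, day 3 minus day 1) against its mean log2 scaled signal over the 10 arrays, with 3 lists coloured. The 42 miR-466, miR-467 and miR-669 names (purple, labelled Sfmbt2 cluster names) all lie under 0, with a median of -0.54, while the muscle miRNAs of high level lie near 0.

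Among the miRNAs lower by value, groups did not overlap for 3 of 306 (0.98%), and among those higher for 0 of 306 (0%). These 3 were miR-3473d, miR-669m-3p and miR-1839-3p. MiR-3473d had log2 scaled signals of 5.44, 5.51, 5.98 and 5.32 on the 4 day 1 arrays, and from 4.04 through a median of 4.63 to 5.27 on the 6 day 3 arrays. All 6 day 3 values lay under the lowest of day 1, and 3 of the 6 day 3 arrays detected the miRNA. Its difference was -0.91 ± 0.33 (adjusted p = 0.439 by limma), and within slides it ran from -1.93 to -0.45. It was -0.61 with brightness as a covariate and -0.23 in the deposited table. For miR-669m-3p the values were 6.82, 6.76, 6.95 and 6.75 on the 4 day 1 arrays, and from 5.07 through a median of 6.19 to 6.64 on the 6 day 3 arrays. The lowest 2 day 3 values were those of replicates 4 and 6, the dimmest arrays, and the difference was -0.78 ± 0.36 (adjusted p = 0.439 by limma) or -0.41 without those arrays. MiR-1839-3p differed by -0.17 ± 0.11 (adjusted p = 0.444 by limma), and its sign turned to 0.02 in the deposited table.

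MiR-744*, the star-marked arm of a precursor within Map2k4, had the largest difference in size of the 306. It was detected on 4 of 4 day 1 and 6 of 6 day 3 arrays, and the other arm, miR-744, on 0 of either day. The signals of miR-744* were 7.40, 7.57, 8.02 and 8.01 on the 4 day 1 arrays, and from 5.72 through a median of 6.54 to 7.60 on the 6 day 3 arrays. Day 3 replicates 3, 4 and 6 lay at or under 5.91, more than 1 unit under the others, and replicate 5 overlapped day 1. The difference was -1.17 ± 0.53 (adjusted p = 0.439 by limma). MiR-7b* differed by -0.91 ± 0.39 and miR-3112* by -0.65 ± 0.25, each with an adjusted p of 0.439 by limma, and both were lower in 4 of 4 slides. Other miRNAs, such as let-7a-1*, let-7d*, miR-10a, miR-1196, miR-15a* and miR-18a*, were also lower in 4 of 4 slides. This trait was therefore not particular to miR-7b* and miR-3112*, and its share of the 306 was not counted. For miR-7b* and miR-3112* the sizes depended on the background correction and the signal column. MiR-7b* differed by -0.20 with normexp correction and by -1.86 with the software's total gene signal, which had its own floor. MiR-3112* differed by -0.04 and -1.58, in that order. On the dimmest array, day 3 replicate 4, both stood at the floor. MiR-3112* was detected on 4 of 4 day 1 arrays and on 2 of 6 day 3 arrays. Day 3 alone thus fell short of the filter, which asked for detection on at least 4 arrays of a group. The same held for miR-3473d, miR-3103 and miR-5127, each detected on 4 of 4 day 1 arrays. Such a filter can keep a miRNA through the day where it is higher, and its part in these differences was not tested.

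MiR-10b and miR-10a lie in Hox clusters and share a seed. MiR-10b had values of 5.65, 6.03, 6.67 and 7.17 on the 4 day 1 arrays, and from 4.74 through a median of 5.77 to 6.56 on the 6 day 3 arrays. The days overlapped, and 5 of 6 day 3 arrays lay under the day 1 mean. Its difference was -0.67 ± 0.29 (adjusted p = 0.439 by limma), -0.75 with brightness as a covariate and -1.33 to -0.31 within slides. MiR-10a ran from 5.83 to 7.95 on day 1 and from 5.01 to 7.47 on day 3, and differed by -0.51 ± 0.38 (adjusted p = 0.489 by limma). Both varied widely within a day: the SD of miR-10b was 0.67 on day 1 and 0.62 on day 3. The tested miR-99, miR-100 and miR-125 members were higher by value, from 0.00 to 0.11.

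**Figure D3:**
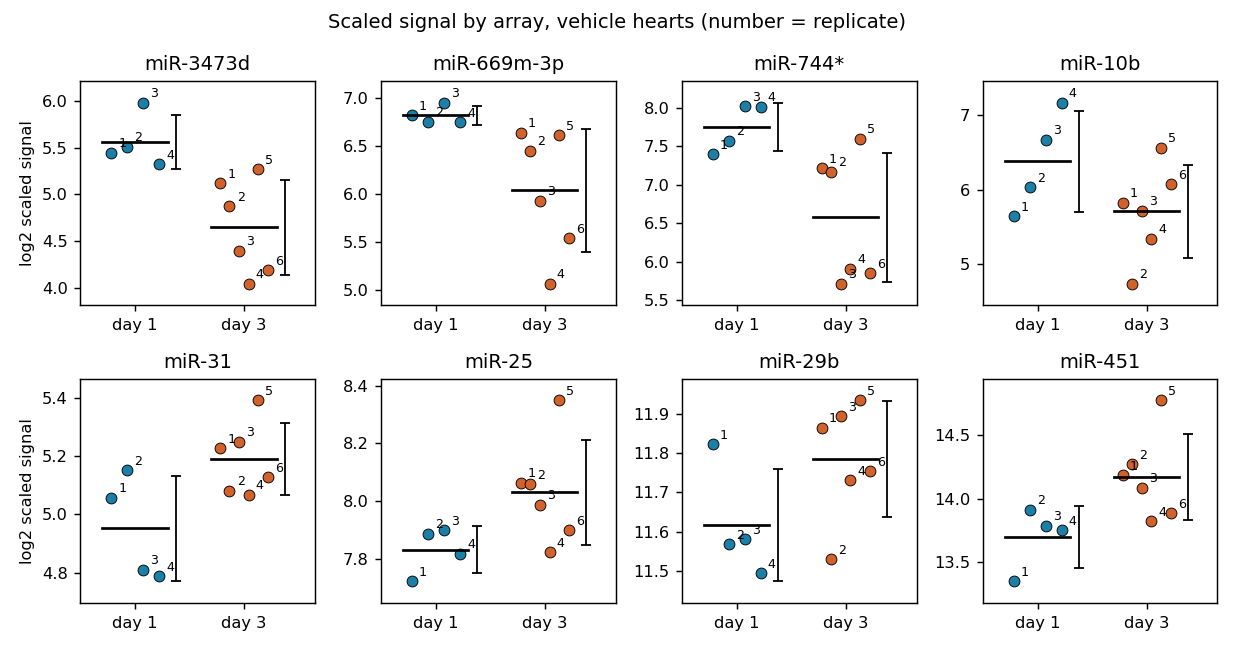
Log2 scaled signal of 8 miRNAs on each vehicle array of day 1 (n = 4) and day 3 (n = 6), with replicate numbers; lines are means and bars 1 SD, and each panel has its own scale that does not start at 0. MiR-3473d and miR-669m-3p show no overlap between days, and the other 6 overlap.

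Among the miRNAs higher by value, miR-31, which is expressed in many tissues and is known in heart stress, had the smallest p. It stood at 5.06, 5.15, 4.81 and 4.79 on the 4 day 1 arrays, and from 5.07 through a median of 5.18 to 5.39 on the 6 day 3 arrays. All 6 day 3 arrays lay above the day 1 mean, and the days overlapped through day 1 replicate 2. The difference was 0.24 ± 0.11 (95% interval 0.02 to 0.46, adjusted p = 0.439 by limma), and it was higher in 4 of 4 slides, by 0.10 to 0.47. Its day 28 vehicle mean was 5.40 ± 0.14 (SD, n = 4), and its Printex 90 means were 5.13 on day 1 and 5.18 on day 3. Its sign was positive in each of the 31 alternatives run, and it passed the threshold in 3 of the 4 weighted fits and in no other alternative. The constant sign was not particular to miR-31. MiR-451 and miR-144 also stayed positive in all 31, and miR-3085-3p in the 30 run for it. Lower miRNAs such as miR-10b, miR-744* and miR-669m-3p stayed negative in all 31. The alternatives reuse the same arrays, so a constant sign is not independent support. MiR-16, a broadly expressed miRNA, differed by 0.13 ± 0.07 (adjusted p = 0.439 by limma). With no scaling the differences of miR-25, miR-92a, miR-16 and the 3 miR-29 guides turned negative, between -0.11 and -0.04, against a median of -0.26 over all miRNAs.

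MiR-25 and miR-92a, which share a seed and belong to the related miR-106b and miR-17 clusters, were both higher by value. MiR-25 had 7.72, 7.89, 7.90 and 7.82 on the 4 day 1 arrays, and from 7.82 through a median of 8.02 to 8.35 on the 6 day 3 arrays. Replicate 5 of day 3 was the highest array, and the difference was 0.20 ± 0.10 (adjusted p = 0.439 by limma). MiR-92a differed by 0.12 ± 0.07 (adjusted p = 0.439 by limma) and lay above the day 1 mean on 6 of 6 day 3 arrays. Of the 10 tested members of the miR-17 clusters, 9 were higher, with a median of 0.10 against -0.04 over all miRNAs. The exception was miR-18a*, and with no scaling the median was -0.13 against -0.26.

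Of the 4 red blood cell markers 3 were higher by value on day 3, namely miR-451 and both arms of its neighbour miR-144. Of miR-486 only the star arm was among the array names. MiR-451, the most abundant of the 4 markers, had 13.35, 13.91, 13.79 and 13.75 on the 4 day 1 arrays, and from 13.82 through a median of 14.14 to 14.77 on the 6 day 3 arrays. All 6 day 3 arrays lay above the day 1 mean, and replicate 5 was the highest. Replicates 4 and 6 overlapped day 1. The difference was 0.47 ± 0.24 (95% interval -0.02 to 0.96, adjusted p = 0.439 by limma). MiR-144 differed by 0.43 ± 0.24 and its other arm miR-144* by 0.44 ± 0.26, while miR-486* differed by -0.03 ± 0.08, each with an adjusted p of 0.439 or more by limma. The median of the 4 was 0.44 against -0.04 over all 306 and ran from 0.20 to 0.74 over the scalings and sources tried. Within slides it was 0.05 to 0.87, and without day 3 replicate 5 it was 0.32. As medians over the list from the day 1 mean, the arrays stood at -0.34, 0.24, 0.08 and 0.03 on the 4 day 1 arrays and 0.48, 0.58, 0.35, 0.11, 1.02 and 0.09 on the 6 day 3 arrays, in replicate order. The blood left in each section was not measured in any other way.

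MiR-451 had a vehicle mean of 13.70 ± 0.24 on day 1, 14.17 ± 0.34 on day 3 and 13.47 ± 0.14 on day 28 (SD, n = 4, 6 and 4). In Printex 90 hearts its mean was 14.17 on day 1 and 13.99 on day 3. The leukocyte markers, which can come with blood, were 4 of 4 higher by value. Their median was 0.15, led by miR-142-3p at 0.23 ± 0.18, with miR-223 of myeloid cells at 0.01 ± 0.10 (adjusted p = 0.529 and 0.985 by limma). With no scaling the leukocyte median was -0.09.

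**Figure D4:**
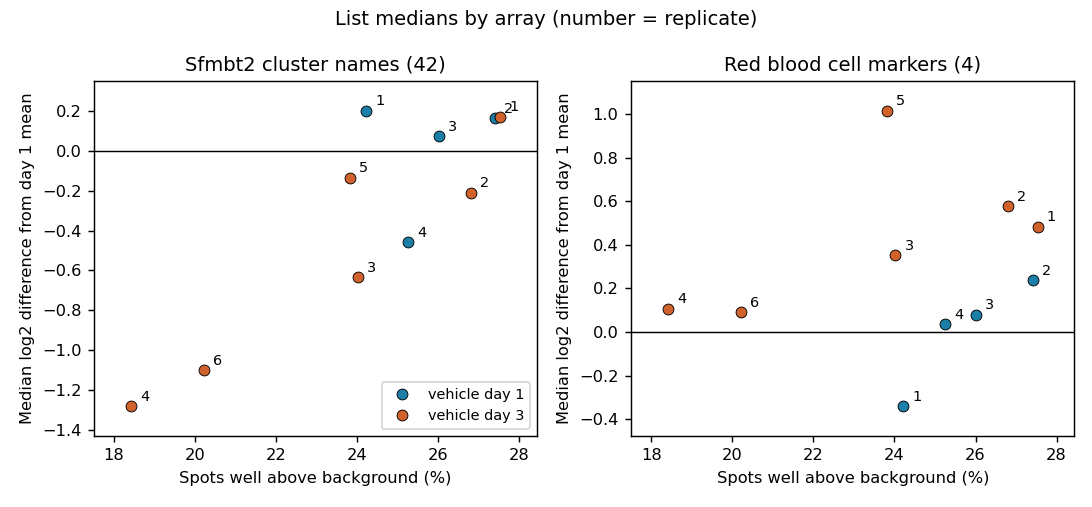
Median log2 difference from the day 1 mean over the miR-466, miR-467 and miR-669 names (left, 42, labelled Sfmbt2 cluster names) and the red blood cell markers (right, 4) on each array, against the share of spots well above background (%). The lowest list medians at left, -1.28 and -1.10, are those of the dimmest arrays, day 3 replicates 4 and 6, and at right day 3 replicate 5 stands highest at 1.02.

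The 3 miR-29 guides, which target collagen and other matrix messages, were higher by value with nearly equal differences. MiR-29a had 12.59, 12.41, 12.46 and 12.48 on the 4 day 1 arrays, and from 12.37 through a median of 12.68 to 13.00 on the 6 day 3 arrays. Replicate 2 of day 3 lay under all day 1 arrays, so the days overlapped, and 5 of 6 day 3 arrays lay above the day 1 mean. The differences were 0.19 ± 0.11 for miR-29a, 0.17 ± 0.09 for miR-29b and 0.18 ± 0.10 for miR-29c, each with an adjusted p of 0.439 by limma. On day 28 the vehicle means were 12.99 ± 0.19, 12.16 ± 0.11 and 12.82 ± 0.21 (SD, n = 4), against 12.68, 11.78 and 12.43 on day 3. Of the 10 fibroblast and matrix miRNAs 9 were higher, with a median of 0.12, or 0.03 without day 3 replicate 5. With no scaling it was -0.12 against -0.26 over all miRNAs. The exception was miR-21, raised in many fibrotic tissues, at -0.02 ± 0.11. On day 3 replicate 5 the list stood 0.48 above the day 1 mean, where miR-199a-3p reached 10.66.

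The abundant muscle miRNAs miR-1a, miR-133a, miR-499 and miR-208a-3p differed by -0.10 to 0.01 between days. MiR-1a, the most abundant miRNA of heart muscle, had 16.07, 15.75, 16.01 and 16.04 on the 4 day 1 arrays, and from 15.74 through a median of 15.95 to 16.04 on the 6 day 3 arrays. The days overlapped over nearly the whole range, and the difference was -0.04 ± 0.07 (95% interval -0.19 to 0.12, adjusted p = 0.898 by limma). The intervals were -0.20 to 0.21 for miR-133a, -0.29 to 0.31 for miR-499 and -0.33 to 0.13 for miR-208a-3p. MiR-208b, from the fetal-type myosin gene Myh7, differed by -0.20 ± 0.16, with vehicle means of 5.34 on day 1, 5.13 on day 3 and 4.06, next to the floor, on day 28. Of 10 tested muscle miRNAs 7 were lower and 3 higher by value, with a median of -0.04 against -0.04 over all. The largest difference in size of these 10 was that of miR-206, at -0.40. MiR-206 was detected on 4 of 4 day 1 arrays and on 2 of 6 day 3 arrays. The abundant markers identify the tissue as heart muscle: miR-1a, miR-133a, miR-499 and miR-208a-3p were detected on all 10 arrays.

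Endothelial miRNAs also lay close to 0. MiR-126-3p differed by -0.03 ± 0.08 (95% interval -0.19 to 0.14), and the 10 tested had a median of -0.03, with 8 lower and 2 higher. The other arm, miR-126-5p, varied widely between arrays and differed by -0.12 ± 0.45, with a 95% interval of -1.05 to 0.80. The smooth muscle pair miR-143 and miR-145 differed by 0.00 ± 0.23 and 0.02 ± 0.19, and on both day 3 replicate 5 stood above the other arrays. Each miRNA named in this paragraph had an adjusted p of 0.961 or more by limma.

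**Figure D5:**
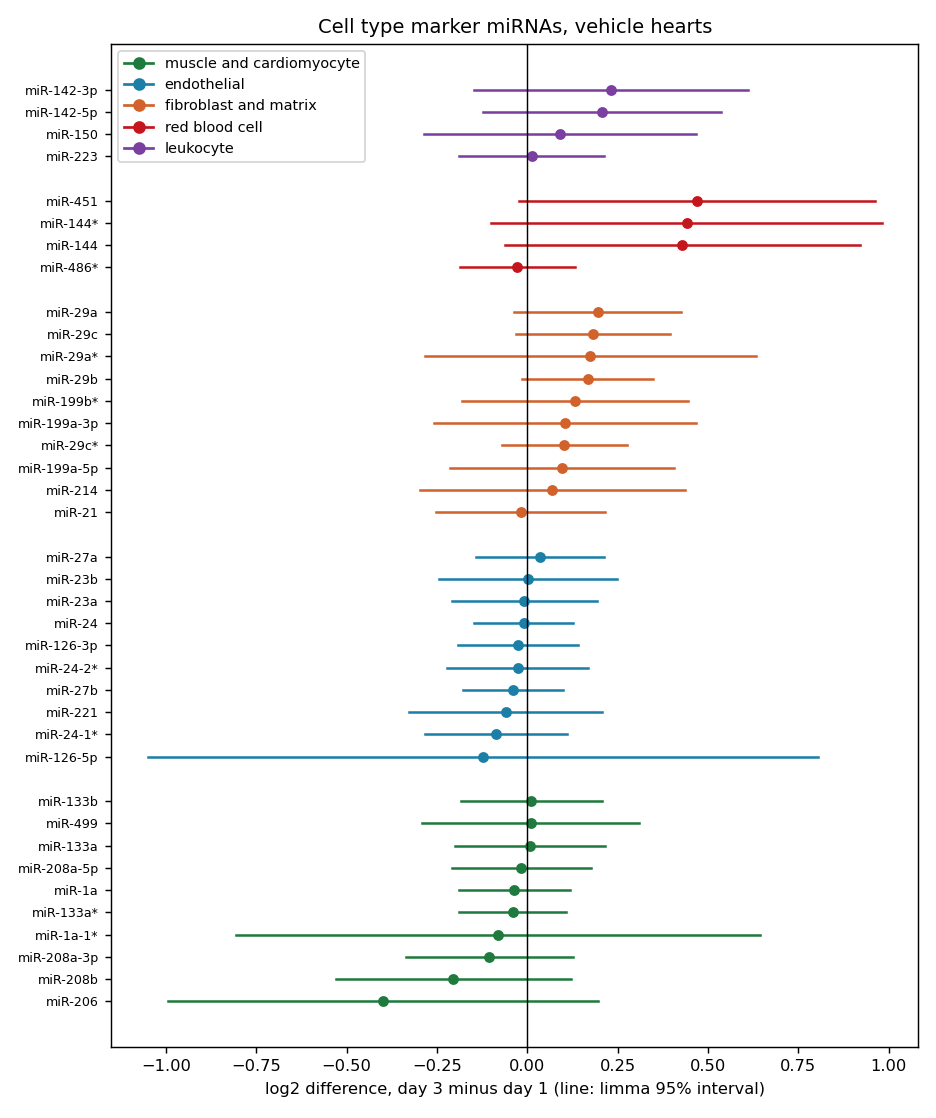
Difference (log2, day 3 minus day 1) and 95% interval from limma for the tested marker miRNAs of muscle, endothelium, fibroblasts and matrix, red blood cells and leukocytes; n = 6 against 4. All intervals include 0, and those of miR-451, miR-144 and miR-144* are centred between 0.43 and 0.47.

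The 4 tested inflammation-induced miRNAs were lower by value on day 3. MiR-146a, induced by NF-kappaB signalling, had 6.62, 6.62, 7.05 and 6.94 on the 4 day 1 arrays, and from 6.30 through a median of 6.60 to 6.82 on the 6 day 3 arrays. Of the 6 day 3 values 5 lay under the day 1 mean and the days overlapped, with a difference of -0.22 ± 0.17 (adjusted p = 0.496 by limma). MiR-155, miR-132 and miR-21 were also lower by value, by -0.09 ± 0.09, -0.02 ± 0.17 and -0.02 ± 0.11. The median of the 4 was -0.05 against -0.04 over all, and relative to that of all miRNAs it ran from -0.08 to 0.09 over the scalings and sources. MiR-210, the classic hypoxia miRNA, differed by -0.05 ± 0.09. Of the p53-responsive miRNAs, miR-34a differed by -0.07 ± 0.08 and miR-34b-3p by -0.69 ± 0.33, or -0.36 without day 3 replicates 4 and 6. Adjusted p by limma was 0.439 or more for each of these.

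The array holds 37 markers of other tissues, and 2 of them passed the detection filter. MiR-122, a liver miRNA, had 6.30, 6.29, 6.31 and 4.47 on the 4 day 1 arrays, and from 4.403 through a median of 6.65 to 7.92 on the 6 day 3 arrays. It stood near the floor on day 1 replicate 4 and day 3 replicate 4, ranged over more than 3 units between hearts, and differed by 0.63 ± 0.73 (adjusted p = 0.738 by limma). MiR-128 of brain differed by 0.03 ± 0.09.

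The 42 miR-466, miR-467 and miR-669 names were all lower by value on day 3, from -0.78 to -0.25, with a median of -0.54 against -0.04 over all miRNAs. None passed the test, and 2 had an unadjusted p under 0.05 by limma. By array, their median difference from the day 1 mean was 0.20, 0.16, 0.07 and -0.46 on the 4 day 1 arrays and 0.17, -0.21, -0.64, -1.28, -0.13 and -1.10 on the 6 day 3 arrays, in replicate order. The dimmest arrays, day 3 replicates 4 and 6, were the lowest, and day 3 replicate 1, the brightest, lay within the day 1 range. The median was -0.17 with brightness as a covariate, -0.21 without those arrays and -0.19 in the deposited table. Over the scalings and sources it stayed under that of all miRNAs, by 0.24 to 0.52. Within slides it ran from -1.41 to -0.20, lower in 4 of 4. The part of brightness in this difference was not tested beyond these values.

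Among the 173 tested miRNAs with a sequence, 16 hold a run of 6 bases of alternating C and A (ACACAC or CACACA) or alternating U and G (UGUGUG or GUGUGU), searched on the miRNA strand after their values were seen, with overlaps counted once. Of these 16, 15 were lower by value, with a median of -0.39, against 78 of 157 and a median of 0.00 for the rest. Names outside the list with such a run include miR-206, miR-329, miR-574-5p and miR-1187. The exception was let-7b at 0.06, and miR-362-3p at -0.05 and miR-342-3p at -0.09 were close to 0. Star-marked arms were lower in 51 of 64 cases with a median of -0.39, and other names in 135 of 242 with a median of -0.02. The repeat holders and the star-marked arms both include miR-466, miR-467 and miR-669 names, which were all lower. The 6 of these names with a sequence are among the 16, and miR-467a* and miR-669b* are among the 64. These group medians were taken with the main scaling, without brightness as a covariate. Over all miRNAs, 102 were lower by more than 0.3, of which 39 were miR-466, miR-467 and miR-669 names, and 6 were higher by more than 0.3: miR-122, miR-140*, miR-144, miR-144*, miR-3085-3p and miR-451. The difference of miR-140* rested on day 3 replicate 5, at 8.64 against 7.04 to 7.22 on the other 5 day 3 arrays, and was 0.08 without it. Without that array the other 5 differed by 0.31 to 0.57. Of these, miR-3085-3p was detected on 2 of 4 day 1 arrays and on 1 of 6 day 3 arrays.

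The Dlk1-Dio3 cluster, an imprinted locus, had 8 tested members, all lower by value, with a median of -0.36. It was -0.12 with brightness as a covariate, -0.10 without day 3 replicates 4 and 6 and 0.04 with normexp, where the sign turned. MiR-329 of this cluster stood at 5.10, 5.12, 5.16 and 4.93 on the 4 day 1 arrays, and from 4.05 through a median of 4.34 to 5.62 on the 6 day 3 arrays, with replicate 5 alone above day 1.

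Families that share a seed differed little between days. For the 9 let-7 guides with the seed GAGGUAG, 8 were higher by value, with a median of 0.02 and a range of -0.01 to 0.06. The 3 let-7 passenger arms with the seed UAUACAA were lower, with a median of -0.17. The 4 members with AAAGUGC (miR-20a, miR-20b, miR-93 and miR-106b) were all higher, with a median of 0.14, and 3 of 4 with AGCAGCA (miR-15a, miR-15b, miR-16 and miR-322) were higher, with a median of 0.09. The 3 miR-29 guides (AGCACCA) had a median of 0.18. The remaining 4 families, of miR-181, miR-99 with miR-100, miR-148 with miR-152 and miR-30, had medians between 0.00 and 0.03. With no scaling all 9 family medians were negative, between -0.40 and -0.05, against -0.26 over all miRNAs.

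The remaining lists had medians between -0.20 and 0.07. The let-7 family with its passenger arms had 8 higher and 5 lower of 13 (median 0.01), the miR-15 and miR-16 family 5 and 3 of 8 (0.05), the miR-30 family 5 and 6 of 11 (-0.02) and the miR-26 and miR-101 list 5 and 0 of 5 (0.05). The miR-181 family had 2 and 2 (0.01), the list of miR-130, miR-301, miR-148 and miR-152 2 and 3 (-0.03), and the cardiac stress list 4 and 4 of 8 (0.01), led by miR-31. Of the family of miR-204 and miR-211, miR-204 differed by -0.20 ± 0.12, miR-211 by -0.58 ± 0.27 and miR-211* by 0.15 ± 0.24. The median of these 3 was -0.20, against -0.10 with brightness as a covariate and 0.00 in the authors' deposited value table. Of 9 late-numbered miRNAs (miR-5000 to miR-5199) 7 were higher, with a median of 0.07 that was -0.02 with brightness as a covariate. No member of any list passed the test without array weights.

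Whether the change between days differed in exposed hearts was tested with Printex 90 hearts of day 1 (n = 6) and day 3 (n = 4 with a signal). Of 306 miRNAs 0 (0%) passed, the smallest adjusted p by limma was 0.735 and 2 had an unadjusted p under 0.05. The smallest p were those of miR-10b, miR-204 and miR-335-5p, whose Printex 90 change minus vehicle change was 0.93 ± 0.40, 0.34 ± 0.16 and 0.51 ± 0.26 (SE). For miR-10b the means were 6.38 and 5.71 in vehicle hearts and 6.15 and 6.41 in Printex 90 hearts on days 1 and 3. For miR-451 this difference of changes was -0.65 ± 0.34. The vehicle arrays enter both comparisons, so their values are not independent. With array weights and array brightness as a covariate, 1 of the 306 miRNAs passed in this test of the difference of changes.

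Each heart had 1 array, so the spread within a day holds the variation of hearts and of arrays together. The SD within a day, pooled over both days, had a median of 0.24 over the 306 miRNAs, was under 0.15 for 98 and over 0.5 for 59. MiR-101b varied least, and miR-3063, miR-376c and miR-302c varied most. On the array, miR-3063 had an SD of 1.72 on day 1 and 1.55 on day 3. Pairs of arrays correlated at 0.977 to 0.997 within day 1, 0.956 to 0.993 within day 3 and 0.956 to 0.998 between days (Pearson r over the 306 miRNAs, as a description), and the 3 ranges overlapped.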

How the data were processed

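The members and lists were chosen with earlier results of these data known. Agilent 1-colour miRNA arrays on 4 slides were read with Feature Extraction 10.7.3.1, per the file headers, and the deposited intensity is that software's processed signal. Spots of a probe were averaged without control and outlying spots, arrays were brought to one 75th percentile, taken over the 418 probes that all 29 arrays with a signal detected, values were floored at 16.5, and log2 was taken. Probes detected on at least 4 arrays of a group were averaged per miRNA (306 miRNAs, 621 probes). Limma 3.58.1 (R 4.3.3) fitted 1 mean per group on the 29 arrays, where 30 had been planned, because 1 Printex 90 day 3 array has no signal. P-values were adjusted by Benjamini-Hochberg with a threshold of 0.05. The script was tested on simulated data. The normexp alternative used median pixel signals, with an offset of 50, in place of the mean pixel signals planned. The deposited value table is on a log2 scale by its values, with array medians between 5.78 and 5.82 and a lowest Spearman correlation of 0.993 with the median pixel signals; the authors' scaling of it is not given in the sources used here.

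Replicates are hearts of separate mice per the labels, numbered in accession order, which pairs nothing. Printed miRNAs were 10 per direction by smallest p, up to 4 of each list, 16 fixed miRNAs and the 3 with the smallest p in the test of the difference; others named (the 3 without overlap, repeat holders, extremes of variation and calls with array weights) were chosen after their values were seen. Alternatives covered scaling, background, signal column, floor, filter, slide, brightness, array weights and leaving out arrays. The number of arrays limits the precision.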

Additional observations from a re-analysis of the deposited data

Results flagged for a closer look

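Of 196 groups of arrays checked for a single array far from the others, 19 were picked out. An array was picked out where its gap to the nearest other, divided by the range of its group, was above Dixon's 95% critical value, which chance passes by construction in about 1 in 20 groups. On day 3 replicate 5 the log2 scaled signals that stood apart were miR-208a-3p at 8.39 (others 8.76 to 8.98), miR-145 at 7.16 (others 6.42 to 6.63), miR-143 at 10.53 (others 9.82 to 10.05), miR-34a at 9.19 (others 9.36 to 9.42) and miR-329 at 5.62 (others 4.05 to 4.44). The smooth muscle pair was thus high and the cardiomyocyte miRNA miR-208a-3p low on the same heart.

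On day 1 replicate 4 the low values were miR-150 at 5.85 (others 6.24 to 6.30), miR-122 at 4.47 (others 6.29 to 6.31), miR-195* at 4.53 (others 5.23 to 5.33), let-7b* at 5.74 (others 6.05 to 6.10), miR-485* at 6.53 (others 7.14 to 7.22), miR-669d* at 7.11 (others 7.48 to 7.52) and miR-5107 at 5.24 (others 5.74 to 5.83). This array had 25.3% of its spots well above background, against 24.2% to 27.4% on the other day 1 arrays. A link of these low values to brightness was not tested.

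Other arrays of day 1 gave miR-29c* at 6.03 (others 6.24 to 6.27) on replicate 2, miR-221 at 6.81 (others 6.95 to 6.98) and miR-27a at 11.37 (others 11.14 to 11.18) on replicate 1, and miR-301a at 6.67 (others 6.69 to 6.70) and miR-299* at 5.37 (others 5.00 to 5.06) on replicate 3. On day 3 replicate 1 it was miR-211* at 5.31 (others 6.23 to 6.73). Day 3 replicate 6 had 9.32% of its spots marked as outlying by the scanner software, against 2.85% to 4.32% on the other day 3 arrays.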

How the results depend on the processing

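No paired analysis by replicate number was possible because the labels give no replicate numbers, and slide as a fixed or random block gave 0 calls. Of 31 alternatives to the test between days, 27 gave 0 calls, with the smallest adjusted p by limma between 0.224 and 0.971. The 4 with array weights gave 103, 85 (gene by gene), 137 (with slide as a block) and 1 (with the brightness covariate). In the last, the test of whether the change between days differed in exposed hearts also gave 1. Leaving out each array in turn gave 0 calls throughout, in both comparisons, and the brightness difference then ran from -3.07 to -1.24 percentage points. Testing without a filter used 427 miRNAs, since 652 stood at the floor on all arrays and were left out, a choice made after seeing that values with no spread were called on rounding error. Among the 95 named miRNAs the sign of the difference changed for 35 with no scaling, 29 with the percentile over all probes, 27 with quantile normalization, 25 in the deposited table and 9 with the brightness covariate. The settings with weights other than the first, slide with brightness, and day 3 replicates 4 and 6 left out together were chosen after seeing the data. Signals close to the floor limit the low-level miRNAs: 12 of the 18 with an unadjusted p under 0.05 lay among the 102 of lowest mean level.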

Other observations

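The arrays also carry probes for 57 viral miRNAs, of mouse cytomegalovirus and mouse gammaherpesvirus by name. Of these 10 were detected on some of the 10 vehicle arrays. The name mghv-mir-M1-3* was detected on 4 of 4 arrays of day 1 and 6 of 6 of day 3, as was mcmv-miR-M23-1-5p. The name mghv-miR-M1-6 was detected on 1 array of each day. These names were not tested between days.

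MiR-3063, miR-376c and miR-302c were the most variable miRNAs within a day. Their day 3 minus day 1 differences within slides ran from -3.46 to 2.82, -3.34 to 2.67 and -2.96 to 1.87, in that order, with both signs in each.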
